A study of Mus musculus with 9 samples.

Results

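AA465934, Klk1, Fetub, Lingo1, Prune2, Perp, Tnfaip3, Vat1, Dclk3 and Arpp21 are 10 of the 18062 genes in a table of expression levels from mouse gastrocnemius, a calf muscle. They were chosen by their higher level in Gaa knock-out (KO) than in wild-type (WT) muscle in these same libraries, from among genes outside the lysosomal, metabolic and contractile families. Their differences between KO and WT are therefore given as descriptions, with no test. By the size of that difference they stood between place 3 (AA465934) and place 104 (Vat1) of 11032 genes with a mean of at least 0.5 RPKM. RPKM, reads scaled to transcript length and to the size of the library, can be compared between genes of different length.

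The study set muscle without acid alpha-glucosidase, the lysosomal enzyme that breaks down glycogen and is lost in Pompe disease, against normal muscle. The 5 KO libraries came from mice aged 5 months, whose Gaa gene was disrupted in exon 6 with loxP sites in introns 5 and 6. Of the 4 WT libraries, 2 came from mice aged 5 months and 2 from mice aged 6 months. All 9 carry the same strain label, a mixed BL6/129j background, and the KO colony was inbred through sibling matings for more than 20 generations. The 4 WT columns of the table give only the genotype and no age, and form 1 group here, and WT 1 to WT 4 are column numbers. Differences between genotypes thus cannot be told apart from differences between the KO colony and the WT mice that have nothing to do with Gaa, or from the older age of 2 WT samples. The labels do not name the mice, so the p-values below measure the spread between these libraries.

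Gaa was at 3.11 to 3.64 RPKM in the KO libraries and 46.0 to 56.0 RPKM in the WT libraries, as their labels have it. The 8 fast fibre markers summed to 84629 to 93204 RPKM in KO and 79460 to 85107 RPKM in WT. One RPKM of a 1-kilobase transcript stood for an estimated 17.6 to 37.4 reads in KO, lowest in KO 3, and 37.0 to 63.5 reads in WT. Over all 11032 genes tested, 37.0% were called higher and 14.8% lower in KO (limma with Benjamini-Hochberg adjustment at 0.05), or 4081 and 1632 genes. Every count of called genes in a list below is to be read beside these shares. The median gene was 0.12 higher in KO on the log2 scale. With each library centred on its median gene the split was 2769 higher and 2758 lower.

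The 10 genes have unlike products. Klk1 (tissue kallikrein) is a secreted serine protease that frees kinin peptides from kininogens, and Fetub (fetuin-B) is a secreted protease inhibitor of the cystatin superfamily, made mainly in liver. Lingo1 is a membrane protein of the Nogo receptor complex, which holds back axon growth and myelination in the nervous system. Perp is a membrane protein of the PMP22 family, a target of p53 and a part of desmosomes in epithelia. Tnfaip3 (A20) is an enzyme that edits ubiquitin chains, and it is both a target and a brake of NF-kappaB signalling. Prune2 carries a BCH domain like Bnip2. Vat1 is an oxidoreductase-like protein first found in synaptic vesicles of the electric ray. Dclk3 is a kinase of the doublecortin-like family and Arpp21 a phosphoprotein regulated by cAMP, both known mainly from brain. AA465934 is listed by RefSeq as a non-coding RNA.

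Promoter windows of RefSeq (GRCm38.p6) were at hand for 8 of the 10 genes, 19 windows in all because Arpp21, Fetub, Lingo1 and Tnfaip3 have several starts, and some windows of Arpp21 overlap. The 250 bases before each start were searched on both strands for 12 motifs. They were the TATA box (TATAAA), the TFEB core (TCACGTGA), the E-box (CACGTG), both metal response cores (TGCACNC along with TGCGCNC), the antioxidant response core (TGACNNNGC), the AP-1 site (TGANTCA), the cAMP response element (TGACGTCA), the FoxO core (GTAAACA), and the kappaB, MEF2 and p53 half-site motifs. CACGTG lies inside every TCACGTGA. The 120 bases before the outermost start of the 4 genes below are shown because they hold the matches named after them, in capitals.
AA465934: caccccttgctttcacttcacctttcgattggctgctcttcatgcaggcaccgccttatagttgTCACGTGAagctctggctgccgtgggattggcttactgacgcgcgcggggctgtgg
Tnfaip3: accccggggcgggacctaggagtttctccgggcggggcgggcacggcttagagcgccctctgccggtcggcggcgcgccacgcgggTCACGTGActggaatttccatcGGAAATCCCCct
Fetub: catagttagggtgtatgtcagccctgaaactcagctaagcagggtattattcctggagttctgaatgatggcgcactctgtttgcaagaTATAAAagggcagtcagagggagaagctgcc
Vat1: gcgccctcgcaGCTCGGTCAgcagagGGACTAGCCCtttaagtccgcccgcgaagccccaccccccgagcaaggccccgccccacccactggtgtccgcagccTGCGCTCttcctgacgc

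The windows shown lie at chr11:83291579-83291698 on the plus strand for AA465934, chr10:19015411-19015530 on the minus strand for Tnfaip3, chr16:22918262-22918381 on the plus strand for Fetub and chr11:101466200-101466319 on the minus strand for Vat1. TCACGTGA, the core of the sites of TFEB-type factors that drive lysosomal genes, stood at positions -56 to -49 from the start of AA465934 and -34 to -27 from that of Tnfaip3. It was in 0.785% of all 32851 promoter windows. The capitals nearest the start of Tnfaip3 are a kappaB match at -12 to -3. Its window held a second one at -125 to -116, and 7.25% of all windows held at least 1. Fetub had TATAAA at -31 to -26, against 12.4% of all windows. Vat1 held TGACNNNGC, read on the strand opposite to the one printed (10.2% of all windows), a p53 half-site (7.13%) and TGCGCNC (12.5%), from far to near. Klk1 held TGACNNNGC beyond the bases shown, and Lingo1 held TGCGCNC at both starts and a kappaB match at its inner start. Tnfaip3 also held TATAAA and TGANTCA farther out, the inner window of Fetub held TGACNNNGC, GTAAACA and a p53 half-site, and inner windows of Arpp21 held MEF2, TGCACNC or TGANTCA. No match was found in Prune2, and no window of the 8 genes held TGACGTCA. A match describes the letters and does not show binding. The 154 tested genes with TCACGTGA in a window were called higher in 44.8% and lower in 13.6% of cases, with a median log2 difference of 0.16. All 7878 tested genes with a window were called higher in 37.2%, with a median of 0.12, and no test was made between these.

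The non-coding AA465934 had the highest KO level of the 10. It was at 27.3, 26.6, 23.4, 30.3 and 27.3 RPKM in KO 1 to 5, against 0.384, 0.259, 0.621 and 0.577 RPKM in WT 1 to 4. The means were 27.0 ± 2.47 RPKM in KO and 0.460 ± 0.169 RPKM in WT (SD, n = 5 and 4), a difference of 5.64 ± 0.18 (SE) on the log2(RPKM + 0.1) scale. Its only transcript in the table is 383 bases long, and the WT values rest on an estimated 3.74 to 15.1 reads. KO libraries were close to each other, while WT 3 and WT 4 were above WT 1 and WT 2.

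Among the secreted proteins, Klk1 was the most uneven of all 10 genes. Levels in KO 1 to 5 were 7.16, 1.96, 3.84, 5.10 and 3.57 RPKM, against 0.0463, 0, 0.0353 and 0.00529 RPKM in WT 1 to 4. KO 1 and KO 4 were highest and KO 2 lowest, a coefficient of variation (SD over mean) of 44.9%. WT 1 to 4 held an estimated 4.01 reads of Klk1 in all, against 64.5 to 219 reads in each KO library. The log2 difference of 5.08 ± 0.30 (SE) therefore depends on the pseudocount, and was 2.30 with 1 and 7.31 with 0.01 added to each RPKM.

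Klk1 has 13 near-identical relatives in the table, the Klk1b genes, and reads of one can be assigned to another. Together they stood at 1.27 ± 0.345 RPKM in KO and 0.286 ± 0.151 RPKM in WT (SD, n = 5 and 4). Klk1 made up 65.0% to 85.5% of the Klk1 and Klk1b sum in KO, against 0% to 22.8% in WT. In WT the sum was mostly Klk1b. The Klk1b gene with the highest KO level, Klk1b26, had 0.635 ± 0.184 RPKM in KO and 0.248 ± 0.169 RPKM in WT. None of the 21 other kallikrein genes in the table reached a mean of 0.5 RPKM.

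**Figure D1:**
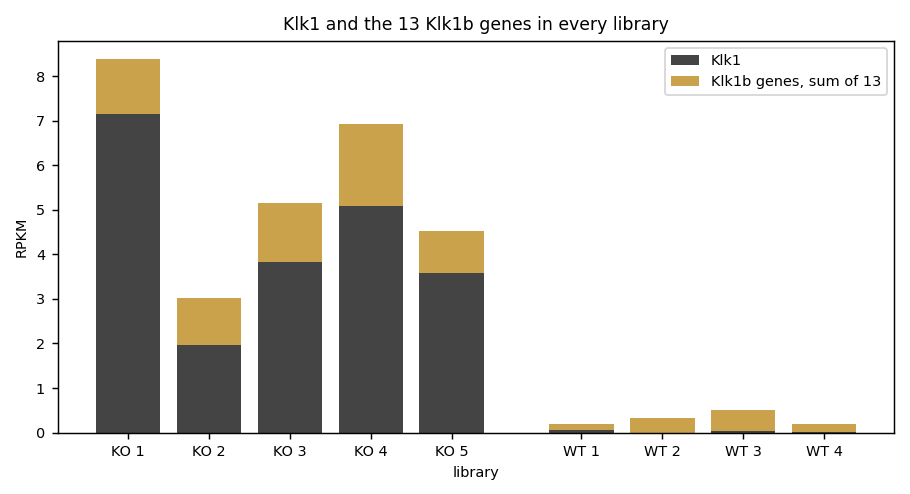
Stacked bars give RPKM of Klk1 (dark) and of the 13 Klk1b genes summed (light) in each library, KO 1 to 5 on the left and WT 1 to 4 on the right. Klk1 is the larger share in each KO library, at 65.0% or more, and at most 22.8% of the sum in WT.

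RNA of the kininogens, the substrates of kallikrein, and of the kinin receptors was nearly absent in this muscle. Their proteins were not measured. Kng1, a kininogen gene, was listed at 0 in each KO library, and its relative Kng2 had 0.0180 RPKM in KO and 0.0261 RPKM in WT. Bdkrb1 and Bdkrb2, the kinin receptors, averaged below 0.05 RPKM in both genotypes. Of 6 tested genes of the kinin system 2 were higher and 1 lower, or 1 higher and 2 lower with libraries centred. Cpe, a carboxypeptidase, had 291 ± 13.8 RPKM in KO and 110 ± 3.66 RPKM in WT, a log2 difference of 1.40 (limma adjusted p = 2.29e-09).

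Fetub was at 5.80, 4.0, 5.30, 2.70 and 4.96 RPKM in KO 1 to 5, against 0.020, 0.0522, 0.0808 and 0.12 RPKM in WT 1 to 4. KO 4 was the lowest of its group, where Klk1 was second highest. The means were 4.55 ± 1.22 RPKM in KO and 0.0682 ± 0.0425 RPKM in WT (SD, n = 5 and 4). The log2 difference was 4.78 ± 0.23 (SE), which became 2.35 with a pseudocount of 1 and 6.01 with 0.01. WT libraries held 0.810 to 8.71 estimated reads each.

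Ahsg (fetuin-A), the closest relative of Fetub and its direct neighbour on chromosome 16, was at 0.0203 RPKM in KO and 0.0133 RPKM in WT. The 6 liver markers, including Alb, summed to 0.106 to 0.248 RPKM in KO and 0.199 to 0.351 RPKM in WT, and Apoa2 and Cps1 were at 0 in each KO library. Of the cystatin superfamily and astacin proteases, 4 were tested and 3 were higher. Cst6, a secreted cystatin, had 9.29 ± 0.961 RPKM in KO and 2.19 ± 0.137 RPKM in WT, a log2 difference of 2.03 (limma adjusted p = 7.19e-09). Cstb, the cytosolic cystatin B, was 1.09 higher on the same scale (adjusted p = 3.08e-06, limma).

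Of the membrane proteins, Lingo1 was at 4.45, 3.57, 3.8, 3.75 and 3.86 RPKM in KO 1 to 5, against 0.163, 0.104, 0.145 and 0.127 RPKM in WT 1 to 4. The coefficients of variation were 8.54% in KO and 18.6% in WT, where the median tested gene had 9.01% and 8.64%, and the log2 difference was 4.09 ± 0.11 (SE). With a pseudocount of 1 it was 2.10. The relatives of Lingo1 stood at other levels. Lingo3 stood at 4.53 ± 0.323 RPKM in KO and 4.50 ± 0.706 RPKM in WT (log2 difference 0.02 ± 0.10 SE, adjusted p = 0.88, limma). Lingo3 was thus above Lingo1 in WT, and the ranges of both genes overlapped in KO. Lingo2 was at 0 in each KO library and Lingo4 averaged below 0.02 RPKM in both genotypes.

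Of 10 tested genes of the Nogo receptor complex, 4 were higher and 3 lower, with a median log2 difference of 0.04, and none reached 1 in size. Lingo1 is known from neurons and glia, so markers of nerve cells are given beside it. The 8 Schwann cell markers summed to 11.5 to 32.1 RPKM in KO and 13.1 to 36.8 RPKM in WT, and none of the 7 tested was called. The 8 neuron markers summed to 0.910 to 1.22 RPKM in KO and 0.792 to 1.14 RPKM in WT. Only Stmn2 was tested, and it was not called. The other 7 had means below 0.5 RPKM and went both ways. Tubb3, Nefm and Nefl averaged 0.232, 0.0462 and 0.0228 RPKM in KO, against 0.0387, 0.00976 and 0.00528 RPKM in WT. Gap43, Rbfox3, Snap25 and Syt1 were lower in KO, with Snap25 and Syt1 at 0 in each KO library. In whole muscle, a change in the number of cells of a type and a change in RNA per cell cannot be told apart.

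Perp was at 18.2, 15.4, 18.5, 21.5 and 16.8 RPKM in KO 1 to 5, against 1.02, 1.39, 1.52 and 1.29 RPKM in WT 1 to 4. The lowest KO library was 10.1 times the highest WT library, and the log2 difference was 3.70 ± 0.12 (SE). Of the desmosome and PMP22 family list, 9 genes were tested, 3 were higher and 1 lower. Emp2, a PMP22 family protein, had 3.23 ± 0.362 RPKM in KO and 1.37 ± 0.229 RPKM in WT, 1.19 higher on the log2 scale (limma adjusted p = 6.09e-06).

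Skin and gland epithelium, where Perp is abundant, was checked by 9 markers. They summed to 5.55 to 6.53 RPKM in KO and 2.91 to 5.21 RPKM in WT, and 2 of 3 tested were higher. Krt18, a keratin of simple epithelia, averaged 1.05 RPKM in KO and 0.0378 RPKM in WT. Trp63, a relative of p53 that is also known from muscle, averaged 4.06 RPKM in KO and 2.30 RPKM in WT. The keratins Krt1, Krt5 and Krt14 of stratified epithelium went the other way. They averaged 0.132, 0.650 and 0.387 RPKM in WT, though Krt1 and Krt5 were at 0 in WT 1. In KO, Krt1 and Krt5 were at 0 in each library and Krt14 was at or next to 0. The part of these cells in the Perp level was not tested.

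Of 25 tested p53 target genes, 8 were higher and 5 lower. These are 32% and 20%, against 37.0% and 14.8% of all tested genes. Their median log2 difference was 0.04, against 0.12 for all genes. With libraries centred, 7 were higher and 8 lower. Cdkn1a, which arrests the cell cycle, had 15.0 ± 2.63 RPKM in KO and 3.52 ± 1.54 RPKM in WT, a log2 difference of 2.14 (limma adjusted p = 1.48e-05). Eda2r, a receptor of the TNF family, was 1.74 higher on that scale and Gadd45a, a stress sensor, 1.60 higher. Plk2, a polo-like kinase, was 1.02 higher. Polk, a DNA polymerase of damage bypass, fell by 1.36, to 2.27 ± 0.470 RPKM in KO, against 5.97 ± 1.08 RPKM in WT. Mdm2, a classical p53 target chosen here after its values were seen, stood at 13.8 ± 0.828 RPKM in KO and 13.4 ± 0.274 RPKM in WT and was not called.

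**Figure D2:**
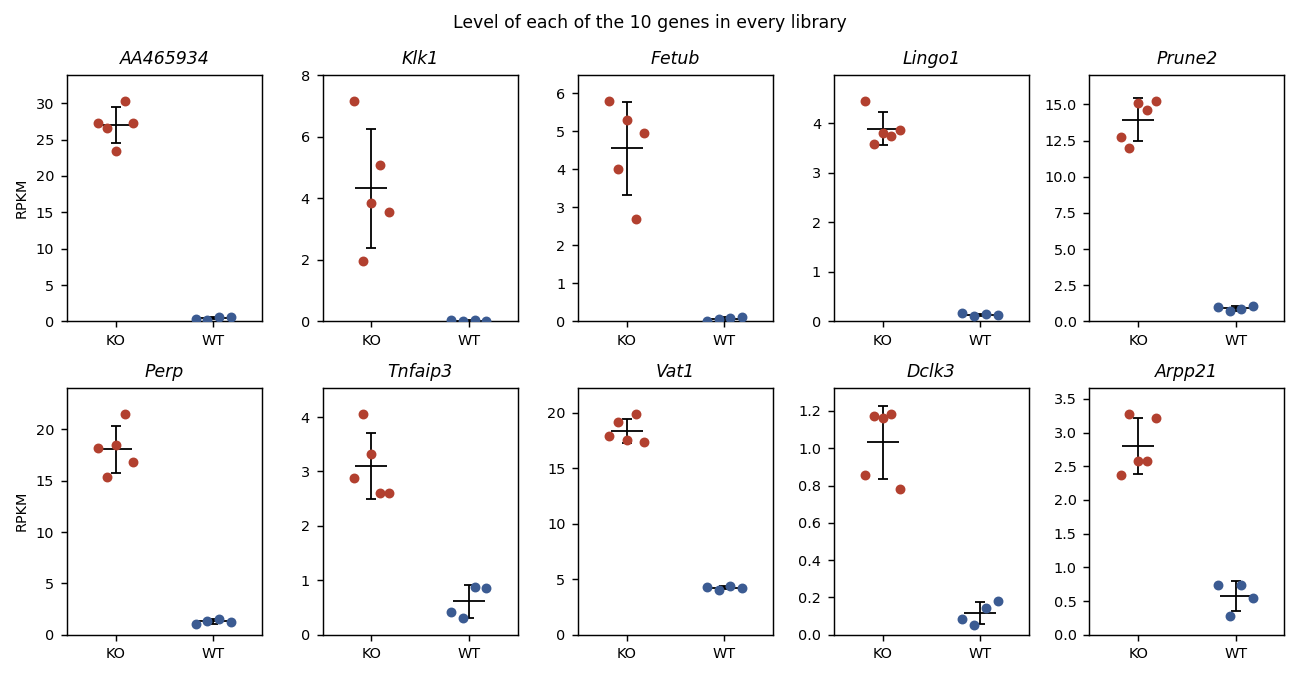
Points give RPKM of each of the 10 genes in every library, KO (red) left of WT (blue), with bars at the mean ± SD, on axes that start at 0 and differ between panels. Relative to the mean, Klk1 and Fetub spread most among KO libraries and Vat1 least. No WT library reached a KO library for any gene, but the genes were chosen by their higher level in KO.

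Tnfaip3 was at 2.89, 4.05, 3.32, 2.61 and 2.61 RPKM in KO 1 to 5, against 0.410, 0.30, 0.869 and 0.868 RPKM in WT 1 to 4. WT 3 and WT 4 were above WT 1 and WT 2, and the highest WT value was 2.90 times the lowest. The log2 difference was 2.25 ± 0.26 (SE), and 1.35 with a pseudocount of 1.

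The genes that carry, start or brake NF-kappaB signals were mostly higher. Of 35 tested, 22 were higher and 4 lower, with a median log2 difference of 0.46 against 0.12 for all genes. With libraries centred, 21 were higher and 9 lower. Nfkb2, the precursor of the non-canonical pathway, was the only one past 1 in size, at 11.0 ± 0.508 RPKM in KO and 3.17 ± 0.220 RPKM in WT (log2 difference 1.76, limma adjusted p = 2.29e-09). Tnip1, an adaptor that works with A20, had 15.9 ± 0.661 RPKM in KO and 8.24 ± 0.311 RPKM in WT (0.94, limma adjusted p = 7.51e-08). Nfkbia, the inhibitor that NF-kappaB induces, had 16.1 ± 4.34 RPKM in KO and 8.68 ± 0.787 RPKM in WT (0.85, limma adjusted p = 0.00067). The list has both activators and brakes of the pathway, so its count says nothing on whether the pathway was more active.

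Macrophages express many of these genes, and macrophage markers were also higher in KO. The 8 macrophage markers summed to 17.1 to 26.8 RPKM in KO and 5.21 to 7.56 RPKM in WT, and all 6 tested were higher. Satellite cell markers, 6 in all, summed to 10.9 to 12.9 RPKM in KO and 6.65 to 7.77 RPKM in WT, and 3 of 4 tested were higher. The part of these cells in the levels of Tnfaip3 and the NF-kappaB list was not tested.

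**Figure D3:**
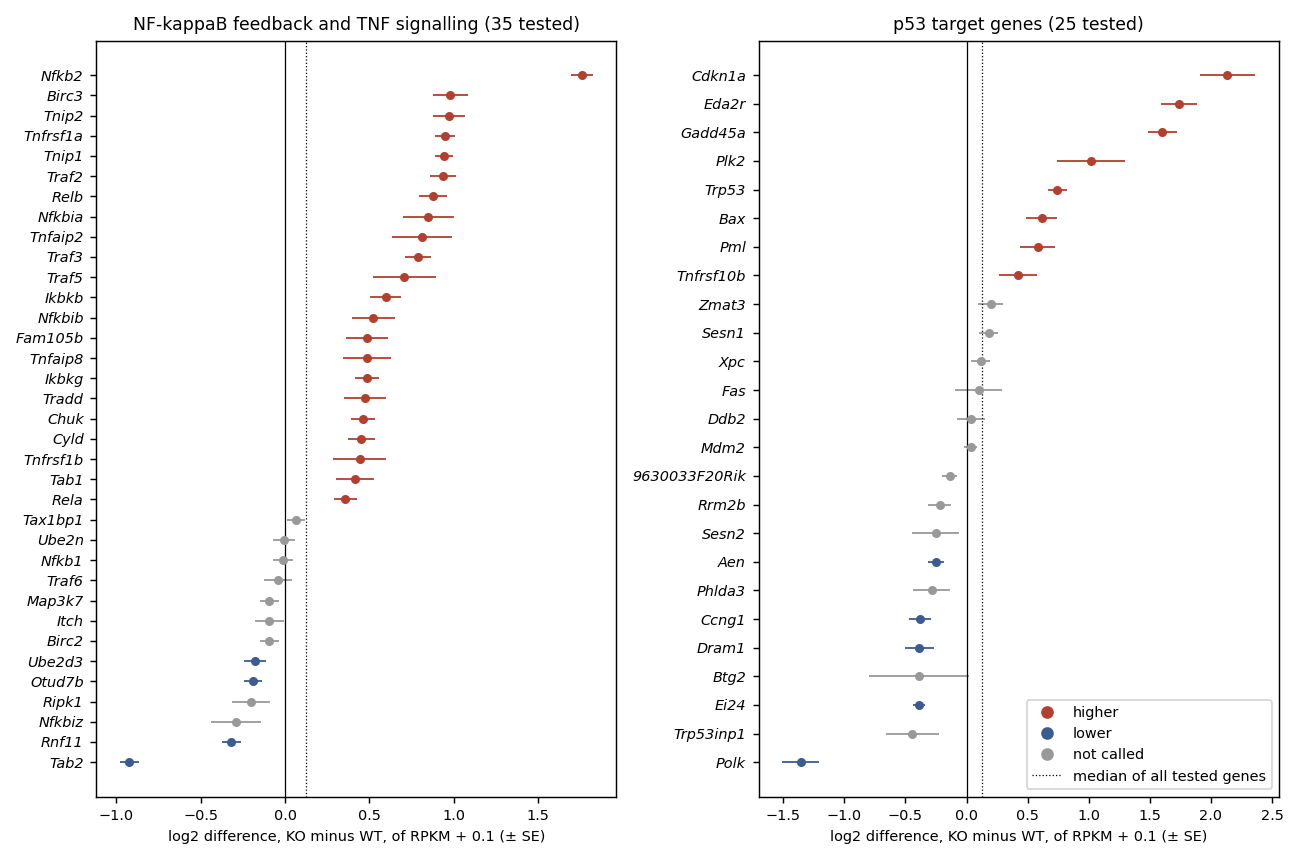
Log2 difference, KO minus WT, of RPKM + 0.1 with its SE for the 35 tested genes of the NF-kappaB list (left) and the 25 tested p53 targets (right), coloured by limma call; the dotted line is the median of all tested genes, 0.12. In the NF-kappaB list 22 genes are called above 0 and 4 below, or 21 and 9 with libraries centred. In the p53 list 8 are called above 0 and 5 below, or 7 and 8 with libraries centred.

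Prune2 had the longest transcript of the genes described, 12512 bases, and the most estimated reads in each KO library. Over the WT libraries together Vat1 had more, an estimated 2189 reads against 2101 for Prune2. Its levels in KO 1 to 5 were 12.8, 12, 15.1, 14.6 and 15.2 RPKM, against 1.00, 0.719, 0.843 and 1.07 RPKM in WT 1 to 4. KO 1 and KO 2 were below the other three, and the log2 difference was 3.81 ± 0.11 (SE). Between 3330 and 6822 estimated reads lay behind each KO value and 339 to 670 behind each WT value.

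None of the tested relatives of Prune2 reached a log2 difference of 1 in size. Atcay, a BCH domain gene named after its values were seen, had 2.31 ± 0.233 RPKM in KO and 1.71 ± 0.293 RPKM in WT. It was called higher (0.43, limma adjusted p = 0.012). Bnip2, which shares the BCH domain, had 26.2 ± 0.573 RPKM in KO and 23.9 ± 0.676 RPKM in WT, and its call as higher (0.13, limma adjusted p = 0.030) was lost when KO 1, KO 4, KO 5, WT 1, WT 3 or WT 4 was left out, with limma adjusted p of 0.052 to 0.085. With libraries centred its difference was 0.0023. Prune had 18.4 ± 0.684 RPKM in KO and 19.4 ± 0.462 RPKM in WT and was not called, but was called lower with libraries centred. Of 11 tested genes of the BCH domain and Prune list 4 were higher and 1 lower, or 2 higher and 3 lower with libraries centred. That list also holds genes without either domain, such as Tpm1 and Bnip3.

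Vat1 was the steadiest of the 10 genes and the most abundant in WT. It was at 18, 19.2, 17.5, 19.9 and 17.3 RPKM in KO 1 to 5, against 4.33, 4.06, 4.39 and 4.24 RPKM in WT 1 to 4. The coefficients of variation were 6.00% in KO and 3.39% in WT, both below those of the median tested gene. The means of 18.4 ± 1.10 RPKM in KO and 4.25 ± 0.144 RPKM in WT gave a log2 difference of 2.08 ± 0.06 (SE), and the range over pseudocounts was 1.88 to 2.11.

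Vat1l, its closest relative, was at 0.228 ± 0.117 RPKM in KO and 0.226 ± 0.107 RPKM in WT. The medium-chain dehydrogenase and reductase list, named for the family of Vat1, had 12 tested genes. Of these, 6 were higher and 1 lower, or 2 and 2 with libraries centred. Tecr, 1 of the 6, is a reductase from outside that family. Ptgr1, a prostaglandin reductase, had 0.979 ± 0.192 RPKM in KO and 0.329 ± 0.0365 RPKM in WT (log2 difference 1.32, limma adjusted p = 2.58e-05). Vat1 is also known in rat as a mitofusin-binding protein. Of 7 tested genes of mitofusins and their partners, 2 were higher and 2 lower, or 1 and 3 with libraries centred, and none reached 1 in size.

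Dclk3 had the lowest KO level of the 10. It was at 0.855, 1.17, 1.16, 1.18 and 0.784 RPKM in KO 1 to 5, against 0.0843, 0.0528, 0.146 and 0.18 RPKM in WT 1 to 4. KO 2, KO 3 and KO 4 were alike and above KO 1 and KO 5. With 61.5 to 133 estimated reads in each KO library and 5.97 to 27.8 in each WT library, its log2 difference of 2.41 ± 0.21 (SE) ran from 0.86 with a pseudocount of 1 to 3.16 with 0.01. Dclk1 was at 0.57 ± 0.164 RPKM in KO and 0.281 ± 0.0863 RPKM in WT, and Dclk2 averaged below 0.1 RPKM in both. None of the 7 doublecortin domain genes in the table reached a mean of 0.5 RPKM. In the wider group of CaM kinases, 17 genes were tested, 5 were higher and 4 lower, and 4 higher and 6 lower with libraries centred.

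Arpp21 was at 2.37, 3.27, 2.58, 2.57 and 3.21 RPKM in KO 1 to 5, against 0.738, 0.277, 0.741 and 0.541 RPKM in WT 1 to 4. WT 2 was the lowest WT library, as for all of the 10 genes but Fetub and Perp. The log2 difference was 2.16 ± 0.22 (SE), and 1.28 with a pseudocount of 1. Of 18 tested genes of the endosulfine, R3H domain and cAMP list, 7 were higher and 8 lower, or 4 and 9 with libraries centred. Arpp19, an inhibitor of the phosphatase PP2A, had 20.7 ± 0.359 RPKM in KO and 10.7 ± 0.345 RPKM in WT (0.95, limma adjusted p = 2.52e-08). Ensa, which acts like Arpp19, was 0.27 higher (limma adjusted p = 0.00091), a call that centring removed. Ppp1r1a, an inhibitor of the phosphatase PP1, fell by 1.98 on the log2 scale, to 1.97 ± 0.695 RPKM in KO, against 7.84 ± 1.86 RPKM in WT (limma adjusted p = 4.33e-05).

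Only Fetub, Tnfaip3 and Arpp21 had several transcripts in the table, 14 of the 21 transcripts of the 10 genes. The deposited values divide shared reads among transcripts by an estimate, so single transcripts are less certain than their sum. For Fetub, NM_001083904 had 3.14 ± 1.22 RPKM in KO and 0.0253 ± 0.0381 RPKM in WT, and NM_021564 had 1.36 ± 0.525 RPKM in KO and 0.0313 ± 0.0588 RPKM in WT. In KO the first made up 69.0% of the summed level, and it was lowest in KO 4, at 43.6%. The third, NM_001083905, was at 0.0477 RPKM in KO and 0.0116 RPKM in WT, and its groups overlapped.

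Tnfaip3 had 2 transcripts in unequal balance. NM_009397 had 1.71 ± 0.715 RPKM in KO and 0.410 ± 0.217 RPKM in WT, and NM_001166402 had 1.38 ± 0.275 RPKM in KO and 0.201 ± 0.0852 RPKM in WT. The share of the first was 40.7% to 71.5% in KO and 59.6% to 70.0% in WT, so the ranges overlapped. Of 9 Arpp21 transcripts, 5 had all KO above all WT, but the gene was chosen by its higher level in KO. The share over all transcripts was not computed, so this count is a description only. The highest was NM_001177618, at 0.943 ± 0.285 RPKM in KO and 0.221 ± 0.198 RPKM in WT, and it held 17.9% to 46.4% of the sum in KO and 7.09% to 55.6% in WT.

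**Figure D4:**
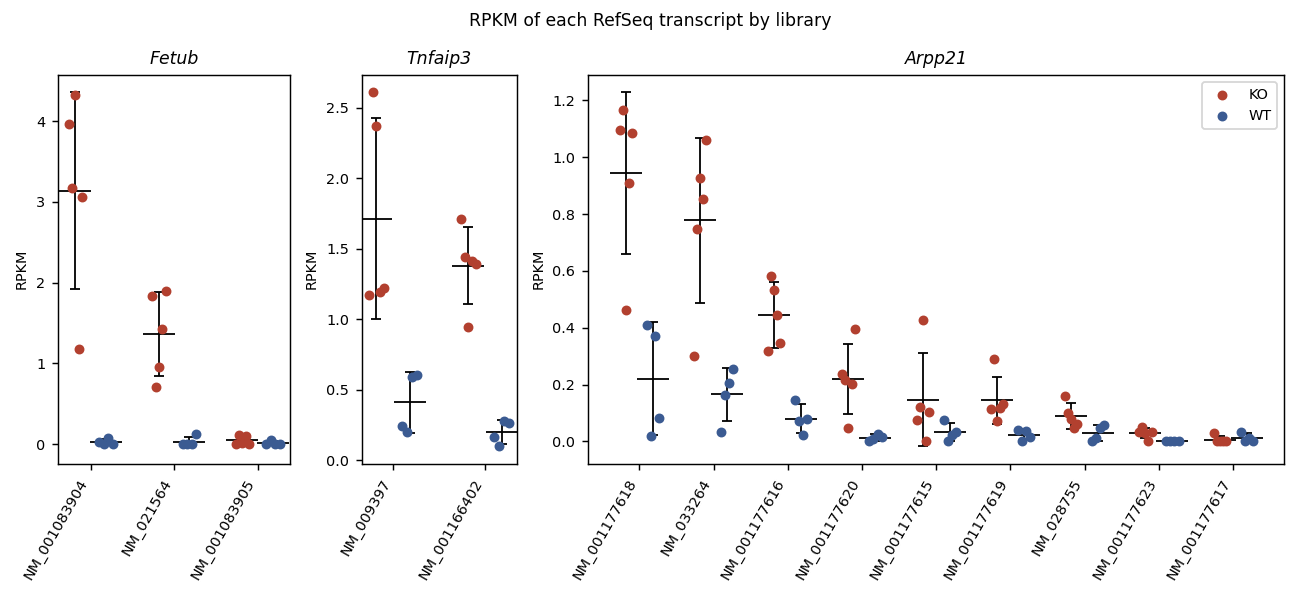
Points give RPKM of each transcript of Fetub, Tnfaip3 and Arpp21 in every library, KO (red) left of WT (blue), with bars at the mean ± SD. No single transcript carries the KO level of Tnfaip3 or Arpp21, and 2 of 3 carry that of Fetub.

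In KO the order of the levels was AA465934, Vat1, Perp, Prune2, Fetub, Klk1, Lingo1, Tnfaip3, Arpp21 and Dclk3. Vat1 and Perp overlapped in their ranges, and so did each pair of neighbours from Fetub to Arpp21. In WT the order was Vat1, Perp, Prune2, Tnfaip3, Arpp21, AA465934, Lingo1, Dclk3, Fetub and Klk1, with overlap in each pair except after Vat1 and after AA465934. All 10 genes passed the filter on low values, and for Prune2, Perp, Tnfaip3, Vat1 and Arpp21 the WT mean alone did so too. The lowest KO library was above the highest WT library for all 10, as for 30.9% of all tested genes, but the choice of the genes used this contrast.

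The genes lie on 6 chromosomes. Perp and Tnfaip3 are direct neighbours among the genes of the table on chromosome 10, and Dclk3 and Arpp21 on chromosome 9 have 1 gene between them, Stac, an adaptor protein known from muscle, with 0.0834 RPKM in KO and 0.0565 RPKM in WT. AA465934 and Vat1 are on chromosome 11 like Gaa, with 576 and 265 genes of the table between them and Gaa. The 2 nearest genes on each side of the 10 come to 33 other genes. Of the 14 with a mean of at least 0.5 RPKM, 10 were higher and 1 lower, a median log2 difference of 0.40 against 0.12 for all genes, and 8 were higher and 1 lower with libraries centred. The lower one, Rfk, second after Prune2 and named after its values were seen, fell by 0.18 on the log2 scale (limma adjusted p = 0.025), a call lost when KO 1, KO 4, WT 2 or WT 3 was left out.

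Vat1 lies between Ifi35, an interferon-induced gene, and Rnd2, a small GTPase. Ifi35 had 13 ± 1.54 RPKM in KO and 5.24 ± 0.247 RPKM in WT (1.29, limma adjusted p = 3.43e-07), and Rnd2 had 3.35 ± 0.436 RPKM in KO and 0.885 ± 0.236 RPKM in WT (1.83, limma adjusted p = 2.44e-06). Ifngr1, an interferon gamma receptor beside Tnfaip3, had 9.88 ± 0.421 RPKM in KO and 6.52 ± 1.21 RPKM in WT (0.61, limma adjusted p = 0.00049). On the other side of Perp, 4930444F02Rik was at 0 in each KO library. AI450353, after AA465934, had 0.665 ± 0.145 RPKM in KO and 0.369 ± 0.0601 RPKM in WT (0.70, limma adjusted p = 0.0043). Next to Prune2, Vps13a was not called. The gene after Klk1, 1700028J19Rik, fell below the filter with 0.649 ± 0.329 RPKM in KO and 0.0730 ± 0.0288 RPKM in WT.

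**Figure D5:**
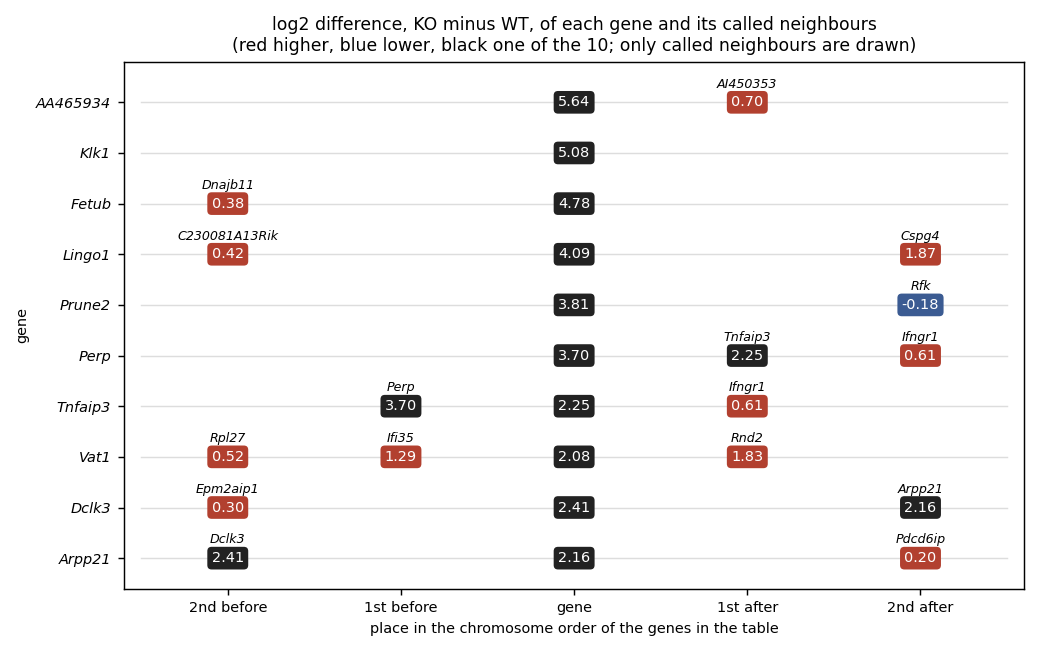
Each line is 1 of the 10 genes and the 2 places on each side in the chromosome order of the genes in the table. Coloured boxes give the log2 difference, KO minus WT, of called neighbours. Black boxes give that of the 10 genes, also where 1 of them lies near another. Other places are left blank. Of the 14 neighbours tested, 10 are higher (red) and 1 is lower (blue).

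Within genotypes, each of the 10 genes was set beside all tested genes by the Pearson r of its deviations from the genotype mean over the 9 libraries, as a description. With so few libraries high values are common: the second-best r of a tested gene had a median of 0.962. The 2 most alike genes had r between 0.906 and 0.992 for the 10 genes. They were BC017647 and Snx33 for AA465934, 1110020A21Rik and 2900002K06Rik for Klk1, Arl6ip5 and Prps1 for Fetub, and Tmed3 and Lyrm4 for Lingo1. Prune2 had Anxa4 and Slc9a9, Perp had Tada1 and AU019823, and Tnfaip3 had Mylip and Myct1. For Vat1 they were Tmem11 and Nup62-il4i1, for Dclk3 Megf9 and Crebzf, and for Arpp21 Myh2 and Hadha.

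Some of these also differed between genotypes. Anxa4, an annexin alike to Prune2, had 34.6 RPKM in KO and 5.04 RPKM in WT, a log2 difference of 2.76 (limma adjusted p = 1.36e-10). Arl6ip5, alike to Fetub, had 128 RPKM in KO and 45.6 RPKM in WT (1.49, limma adjusted p = 5.78e-08). Myh2, the myosin of a fast oxidative fibre type, alike to Arpp21, had 364 RPKM in KO and 158 RPKM in WT (1.25, limma adjusted p = 0.00037). Among the 10 genes themselves the highest r was 0.84, between Tnfaip3 and Dclk3, and the lowest -0.63, between Fetub and Vat1. All of them share the same libraries and depths.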

How the data were processed

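The authors deposited a single table of RPKM values (reads scaled to transcript length and library size), with a line for each RefSeq transcript and a column for each library. Build mm9 and the programs TopHat 1.3.2, Bowtie 0.12.7.0 and Partek 6.6 are named per the submitters' processing notes; how strand was treated is not given in the sources used here. In all 23665 transcripts were summed to 18062 gene symbols, 36 of them restored from dates. All value columns were used. Depth was estimated from the steps of low values; 70.8% to 74.4% of them lay within 0.1 of a whole number of reads, and such estimates cover counting error only.

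Genes with a mean of at least 0.5 RPKM were tested on log2(RPKM + 0.1), which understates changes of low genes, comparing 5 KO with 4 WT libraries. The test was the two-sided moderated test of limma 3.58.1 with a trend (R 4.3.3), Benjamini-Hochberg adjusted over 11032 genes and tested on simulated data. Tables were made with Python and pandas 2.3.3. The genes described and the gene lists were chosen with earlier results of these data known. Named were all 10 genes, called list genes with a log2 difference of at least 1 (at most 5 per list), the closest relatives, the nearest neighbours, 1 of which is not reported here, and the 2 most alike genes. GRCm38 annotation gave names, lengths and gene order only, and RefSeq promoters of that assembly gave sequence. RefSeq promoters of Perp and Dclk3 were not used here. Alternatives were other pseudocounts, filters, scalings, no trend, the highest transcript per gene and each library left out.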

Additional observations from a re-analysis of the deposited data

How the results depend on the processing

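No paired analysis was possible because the WT columns carry no number from the labels, and the labels name no mice to pair. Under 17 alternatives the counts stayed within 1.5 times the reported ones: genes called in all ran from 5030 to 6272 (5713 reported), list genes from 87 to 104 (96), neighbours from 9 to 14 (11) and higher NF-kappaB genes from 21 to 24 (22). The direction of calls depended on scaling. With libraries centred 52 list genes were higher and 47 lower, and with quantile normalization 49 and 50, against 66 and 30; for all genes quantile normalization gave 2644 higher and 3056 lower. Of 170 recomputed differences of the 10 genes 19 moved by more than the spread between replicates, 10 of them with a pseudocount of 1, and none changed direction; leaving out single libraries moved them least for Vat1 (2.06 to 2.10) and most for Klk1 (4.87 to 5.33). Of the 46 other named genes tested, 6 gained or lost their call somewhere: Bnip2, Ensa, Prune, Tada1, Tmem11 and AU019823. The cause was not tested. Low WT levels of Klk1, Fetub and Dclk3 limit their differences, and the lower depth of KO 3 its precision. None of the 20 groups of values of the 10 genes had a library far from the others by Dixon's test.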
